A study of Mus musculus with 10 samples.

Results

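The genes described here are 9 genes of transforming growth factor beta (TGF-beta) signalling, chosen by symbol from the 18603 genes of the deposited count table. They are the ligand genes Tgfb1, Tgfb2 and Tgfb3, the receptor genes Tgfbr1, Tgfbr2 and Tgfbr3, the feedback inhibitor gene Smad7 and the response genes Ccn2 and Tgfbi. All 9 were found, and all 9 passed the low-count filter that left 15883 genes for testing. RNA was sequenced from whole tumours of RENCA, a renal carcinoma line from mouse, grown under the skin of female Balb/c mice. In the control group the tumours were injected with PBS, the vehicle, and in the treated group with SLR14, a triphosphate stem-loop RNA that activates the RNA sensor RIG-I, carried in lipid nanoparticles in 50 µL of PBS. Tumours of 100 to 150 mm3 received 3 injections 48 h apart and were taken 24 h after the last one, with 5 mice in each group. No group received the lipid carrier alone, so RNA and carrier cannot be told apart, and both groups carry the same cell line.

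TGF-beta is made as a precursor, cut by furin and stored in the matrix in a latent complex, from which integrins and other proteins release it. The released ligand binds the type II receptor Tgfbr2, which phosphorylates the type I receptor Tgfbr1, and this receptor activates Smad2 and Smad3, which enter the nucleus with Smad4. In tumours the pathway is known for restraining lymphocytes and for driving fibroblasts to make matrix. Smad7 blocks the type I receptor and is itself induced by the signal, as are the matrix-associated proteins made from Ccn2 and Tgfbi.

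The promoters of 3 genes are shown because they belong to the gene whose level differed most between the groups (Tgfbi) and to the most and least abundant ligand genes (Tgfb1 and Tgfb2). Each is the 250 bases before the annotated start, 5′ to 3′ on the gene's strand, from RefSeq on GRCm38.p6, a build other than the mm39 of the count table. Capitals mark matches, on either strand, to the 6 motifs searched, and no marked matches overlap.
Tgfbi: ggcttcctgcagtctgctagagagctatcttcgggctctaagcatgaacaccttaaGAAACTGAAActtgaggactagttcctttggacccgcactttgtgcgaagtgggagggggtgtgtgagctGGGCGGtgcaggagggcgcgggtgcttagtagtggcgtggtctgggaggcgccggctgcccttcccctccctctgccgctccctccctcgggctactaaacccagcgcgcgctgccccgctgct
Tgfb1: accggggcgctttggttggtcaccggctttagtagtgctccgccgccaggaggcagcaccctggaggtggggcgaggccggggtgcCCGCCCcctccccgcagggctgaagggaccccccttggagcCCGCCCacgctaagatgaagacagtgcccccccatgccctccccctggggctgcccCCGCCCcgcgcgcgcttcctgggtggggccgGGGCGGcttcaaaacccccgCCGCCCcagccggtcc
Tgfb2: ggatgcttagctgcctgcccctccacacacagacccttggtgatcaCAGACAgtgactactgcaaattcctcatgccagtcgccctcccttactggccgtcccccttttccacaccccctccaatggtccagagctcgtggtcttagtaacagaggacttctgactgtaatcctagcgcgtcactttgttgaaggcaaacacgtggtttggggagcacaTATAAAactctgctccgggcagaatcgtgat
The Tgfbi window (chr13:56609336-56609585, + strand) held 1 match to an interferon-response pattern (GAAA, any 2 bases, GAAA), starting at position -194 from the gene's start, and such a match was present in 2.98% of all 32851 windows of this length. It also held 1 match to the GC box GGGCGG, which 32.7% of windows hold. The Tgfb1 window (chr7:25686752-25687001, + strand) held 5 GC boxes, and 75.2% of its bases were G or C against a median of 52.4% over all windows. The Tgfb2 window (chr1:186705990-186706239, - strand) held a TATA box, TATAAA, starting at position -31 (12.4% of windows), and 1 match to the Smad-binding CAGA sequence CAGACA starting at position -204 (17.1% of windows). Neither the palindromic Smad element GTCTAGAC (0.167% of windows) nor the TEAD motif GGAATG (12.6% of windows) matched in any of these 3 windows. Windows were matched by symbol for 5 of the 9 genes, the other matched genes being Tgfbr1 and Tgfbr2, while Tgfb3, Tgfbr3 and Ccn2 had no match. The windows of 1 chromosome, that of Smad7, were left out of the matching, so whether Smad7 had a match is not known.

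Total counts per tumour ranged from 17931895 to 39842608. The 10 renal epithelial markers averaged from 0.307 CPM (Lhx1), 1.09 CPM (Krt19) and 3.45 CPM (Epcam) to 92.2 CPM (Pax8) and 1415 CPM (Krt8) in PBS tumours, where CPM is a gene's count relative to its library's total, scaled for composition by TMM. Of these markers 1 of 10 fell after SLR14, Epcam (log2 fold change -2.42, edgeR adjusted p = 0.0324), and Cdh16 was lower without overlap but did not pass (-0.52). Of all tested genes 0.29% were called lower. PBS 5 stood apart over all genes: the chi-square statistic of its 4 pairs with other PBS tumours was 103 to 146 times its degrees of freedom, and that of every other pair within a group 8.15 to 41.8 times. In the genes described here it was the lowest PBS tumour for 6 of the 9 (Tgfb1, Tgfb2, Tgfbr2, Tgfbr3, Smad7 and Tgfbi) and the highest for Tgfbr1. Its summed level of 6 erythroid markers, 173 CPM, was the highest of the 10 tumours, the other PBS ones holding 54.3 to 63.9 CPM. SLR14 2 had the lowest summed level of skeletal muscle markers, 2.74 CPM against 95.4 to 222 in the other SLR14 tumours. Markers of skin keratinocytes, 4 of 10 in the table, summed to 55.3 CPM in PBS 4 and 101 CPM in SLR14 5, and to 2.60 to 5.76 CPM in the other 8 tumours. Among the genes followed over other settings, values without PBS 5 are given where the log2 fold change moved by more than 1.5 times. Smad2, Smad3, Smad4, Epcam, Cdh16 and the genes most like each of the 9 were not followed.

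After SLR14, 0 of the 9 genes passed an adjusted p of 0.05 in edgeR's quasi-likelihood test, in which 0.963% of all tested genes passed. At an unadjusted p under 0.05 there were 2, Tgfbi and Smad7, both higher in SLR14 tumours, where 10.8% of all tested genes reached that p and 5.4% did so with a higher level. DESeq2 called 1 of the 9, Tgfbi, where it called 2.19% of its tested genes, and limma voom called 0 (0.913%). Without PBS 5 edgeR called 0 of the 9 (1.2% of genes tested then), and without both PBS 5 and SLR14 2 it called 0 (1.33%), a setting chosen after seeing the data. The fold change was positive for 4 and negative for 5 of the 9, with a median log2 fold change of -0.03 beside -0.01 over all tested genes. Groups did not overlap for 1 of the 9 genes, Tgfbi, and for 3.24% of all tested genes. In whole tumours, fewer cells of a type and less RNA per cell cannot be told apart. The plot of the 9 genes by tumour shows every value.

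**Figure D1:**
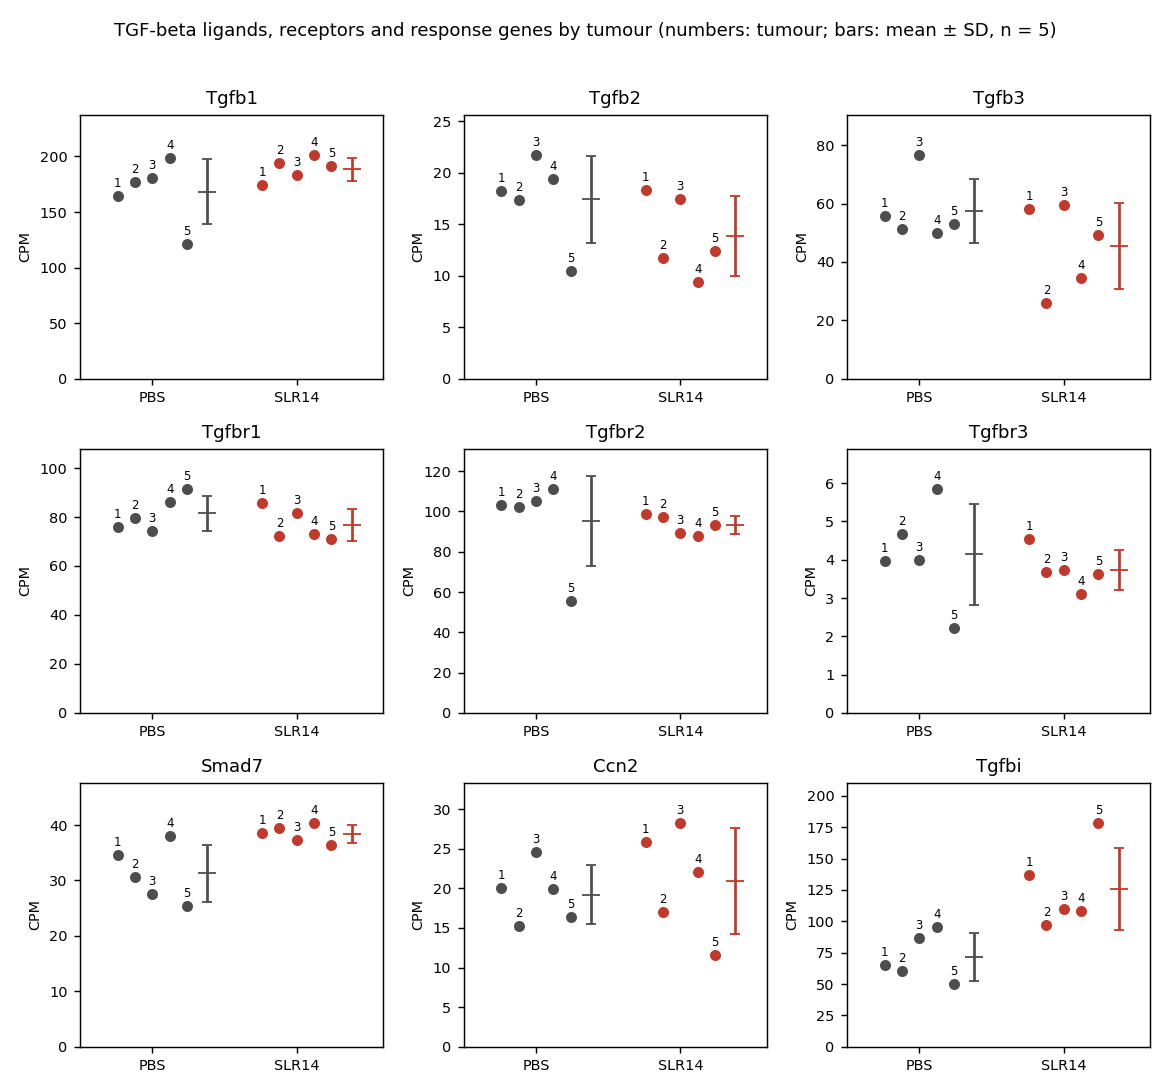
Level of each of the 9 genes in CPM (y axes, starting at 0) in the 5 PBS and 5 SLR14 tumours. Each point is 1 tumour with its number, and the bar beside each group is the mean ± SD. The SLR14 tumours lie above every PBS tumour for Tgfbi (97 to 178 against 49.8 to 95.4 CPM), while the groups overlap for the other 8 genes, and PBS 5 lies below the other PBS tumours for Tgfb1, Tgfb2 and Tgfbr2.

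Among the ligands, Tgfb1, the isoform made by leukocytes, platelets and many tumour cells, was the most abundant. In PBS tumours 1 to 5 it was at 164, 177, 181, 199 and 121 CPM, and in SLR14 tumours 1 to 5 at 174, 194, 183, 201 and 191 CPM. PBS 2, 3 and 4 lay within the SLR14 range and PBS 1 and PBS 5 below it, so the groups overlapped, with PBS 5 far below the rest. The means were 168 ± 29.4 and 189 ± 10.4 CPM (SD, n = 5; log2 fold change 0.17, 95% interval -0.10 to 0.43, edgeR adjusted p = 0.630). Without PBS 5 the log2 fold change was 0.06.

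Tgfb2, an isoform known from epithelium and development, was at 18.2, 17.4, 21.7, 19.4 and 10.5 CPM in PBS tumours and at 18.3, 11.7, 17.5, 9.43 and 12.4 CPM in SLR14 tumours. SLR14 1 and 3 were level with most PBS tumours, while SLR14 2, 4 and 5 lay near PBS 5. The log2 fold change was -0.33 (95% interval -0.78 to 0.12, edgeR adjusted p = 0.591), and -0.46 without PBS 5 (edgeR adjusted p = 0.290). For Tgfb3, the isoform linked to mesenchyme, the PBS values were 55.6, 51.2, 76.5, 50.0 and 53.1 CPM and the SLR14 values 58, 25.9, 59.5, 34.5 and 49.1 CPM. PBS 3 was the highest of the 10 tumours and SLR14 2 and 4 were the lowest, with the other 7 between 49.1 and 59.5 CPM. The log2 fold change was -0.33 (95% interval -0.77 to 0.11, edgeR adjusted p = 0.584), and it was -0.18 without SLR14 2 and -0.20 without PBS 3. SLR14 1 and 3 were thus the 2 highest SLR14 tumours for both Tgfb2 and Tgfb3, and SLR14 2 and 4 were below SLR14 5 for both.

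Per kb of exon, Tgfb1 made up 62.4 ± 4.86% of the summed level of the 3 ligand genes in PBS tumours and 70.7 ± 7.66% in SLR14 tumours (SD, n = 5). Tgfb3 made up 32.0 ± 5.17% and 24.9 ± 6.84%, and Tgfb2 5.58 ± 0.690% and 4.47 ± 1.05%. All 3 shares overlapped between the groups. The log2 ratio of Tgfb3 to Tgfb1 ranged from -1.42 to -0.61 in PBS and from -2.33 to -1.01 in SLR14 tumours, a difference of means of -0.57. For Tgfb2 to Tgfb1 it ranged from -3.72 to -3.26 in PBS and from -4.62 to -3.46 in SLR14 tumours, a difference of -0.52. These ratios are descriptions and carry no test.

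Of the receptors, Tgfbr1, the type I kinase, was at 76.1, 79.7, 74.2, 86.3 and 91.3 CPM in PBS tumours and at 85.8, 72.1, 81.6, 73.1 and 71.1 CPM in SLR14 tumours. Its values spread over largely the same range in both groups, with PBS 5 the highest of all. The log2 fold change was -0.09 (95% interval -0.29 to 0.11, edgeR adjusted p = 0.733), and -0.05 without PBS 5. Tgfbr2, the type II kinase that binds the ligand first, was at 103, 102, 105, 111 and 55.6 CPM in PBS tumours and at 98.6, 97.1, 89.4, 87.8 and 93.5 CPM in SLR14 tumours. The 5 SLR14 tumours all lay below PBS 1 to 4 and above PBS 5. The log2 fold change was -0.03 over all tumours (95% interval -0.36 to 0.30, edgeR adjusted p = 0.946) and -0.18 without PBS 5 (edgeR adjusted p = 0.238), so that this value rests on 1 tumour.

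Tgfbr3, or betaglycan, which presents the ligands and above all TGF-beta 2 to the kinases, was the least abundant of the 9 genes. It was at 3.97, 4.67, 4.00, 5.84 and 2.21 CPM in PBS tumours and at 4.55, 3.69, 3.73, 3.11 and 3.62 CPM in SLR14 tumours. PBS 4 was the highest and PBS 5 the lowest of the 10, and the SLR14 tumours lay between them. The log2 fold change was -0.15 (95% interval -0.63 to 0.33, edgeR adjusted p = 0.806) and -0.31 without PBS 5 (edgeR adjusted p = 0.521). The log2 ratio of Tgfbr2 to Tgfbr1 per kb was between 0.03 and 0.18 in PBS 1 to 4, -1.04 in PBS 5 and between -0.19 and 0.10 in SLR14 tumours. Tgfbr3 to Tgfbr2 stayed between -4.50 and -3.93 in all 10 tumours.

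Smad7, the inhibitory Smad that recruits ubiquitin ligases to the type I receptor, was at 34.6, 30.7, 27.6, 38.1 and 25.4 CPM in PBS tumours and at 38.6, 39.4, 37.3, 40.3 and 36.4 CPM in SLR14 tumours. Only PBS 4 reached into the SLR14 range, and the SLR14 tumours differed little among themselves. A smaller coefficient of variation in SLR14 than in PBS tumours was found for 6 of the 9 genes and for 71.9% of all tested genes. The means were 31.3 ± 5.14 and 38.4 ± 1.56 CPM (SD, n = 5; log2 fold change 0.29, SE 0.11, 95% interval 0.06 to 0.53). Its edgeR unadjusted p was 0.0188 and its adjusted p 0.341, so it did not pass over all genes. Over the 19 alternative settings the log2 fold change lay between 0.21 and 0.38 and the adjusted p between 0.155 and 0.570.

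Of the response genes, Tgfbi, which encodes a secreted matrix protein that binds collagen and integrins, had the largest fold change of the 9. It was at 64.9, 60.2, 86.5, 95.4 and 49.8 CPM in PBS tumours and at 137, 97, 110, 108 and 178 CPM in SLR14 tumours. All 5 SLR14 tumours lay above every PBS tumour, with SLR14 5 the highest, but the lowest SLR14 tumour (SLR14 2) was close to the highest PBS tumour (PBS 4). Of all tested genes, 1.92% had SLR14 tumours wholly above PBS tumours. The means were 71.4 ± 18.9 and 126 ± 32.6 CPM (SD, n = 5), a log2 fold change of 0.82 (SE 0.20, 95% interval 0.40 to 1.24, a fold of 1.77). The edgeR adjusted p was 0.0786, above the threshold, with an unadjusted p of 0.00100. DESeq2 gave 0.83 (adjusted p = 0.00580), and in edgeR without PBS 4 the gene passed (0.95, adjusted p = 0.0480). Without SLR14 5 it was 0.66 (edgeR adjusted p = 0.180). PBS 4 and SLR14 5, the highest tumours of their groups for Tgfbi, are also those with the raised keratinocyte markers. Over all 19 alternatives the log2 fold change lay between 0.66 and 0.95 and the adjusted p between 0.00580 and 0.213.

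Ccn2, connective tissue growth factor, responds to TGF-beta and to the mechanical Yap and TEAD pathway. It was at 20, 15.2, 24.6, 19.9 and 16.4 CPM in PBS tumours and at 25.8, 17, 28.2, 22.0 and 11.6 CPM in SLR14 tumours. The SLR14 tumours spanned and exceeded the PBS range at both ends, with SLR14 3 the highest and SLR14 5 the lowest of the 10. The log2 fold change was 0.12 (95% interval -0.33 to 0.58, edgeR adjusted p = 0.832), and it was -0.01 without SLR14 3, 0.28 without SLR14 5 and 0.07 without PBS 5. SLR14 5 thus held the lowest Ccn2 and the highest Tgfbi value of all tumours.

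Levels were compared between the 9 genes only per kb of exon (CPM divided by the union of annotated exons). In PBS tumours the order was Tgfb1 (33.4 ± 5.84 CPM per kb), Tgfbi (18.9 ± 5.02), Tgfb3 (16.9 ± 3.23), Tgfbr1 (12.5 ± 1.10), Tgfbr2 (11.6 ± 2.75), Smad7 (6.92 ± 1.14), Ccn2 (6.71 ± 1.29), Tgfb2 (3.01 ± 0.727) and Tgfbr3 (0.632 ± 0.201; SD, n = 5). Of the neighbours in this order, the ranges over tumours overlapped for Tgfb1 and Tgfbi, Tgfbi and Tgfb3, Tgfbr1 and Tgfbr2, Tgfbr2 and Smad7, and Smad7 and Ccn2. They did not overlap for Tgfb3 and Tgfbr1, Ccn2 and Tgfb2, or Tgfb2 and Tgfbr3. In SLR14 tumours Tgfb1 was at 37.4 ± 2.06 and Tgfbi at 33.4 ± 8.66 CPM per kb, and their ranges overlapped (34.6 to 39.9 and 25.7 to 47.3). The length matters most for Tgfb1, which reached 65.4 CPM per kb in PBS tumours with its longest transcript in place of the union of exons. With that length Tgfb1 lay above Tgfbi in SLR14 tumours without overlap (67.8 to 78.3 and 32.3 to 59.3 CPM per kb).

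**Figure D2:**
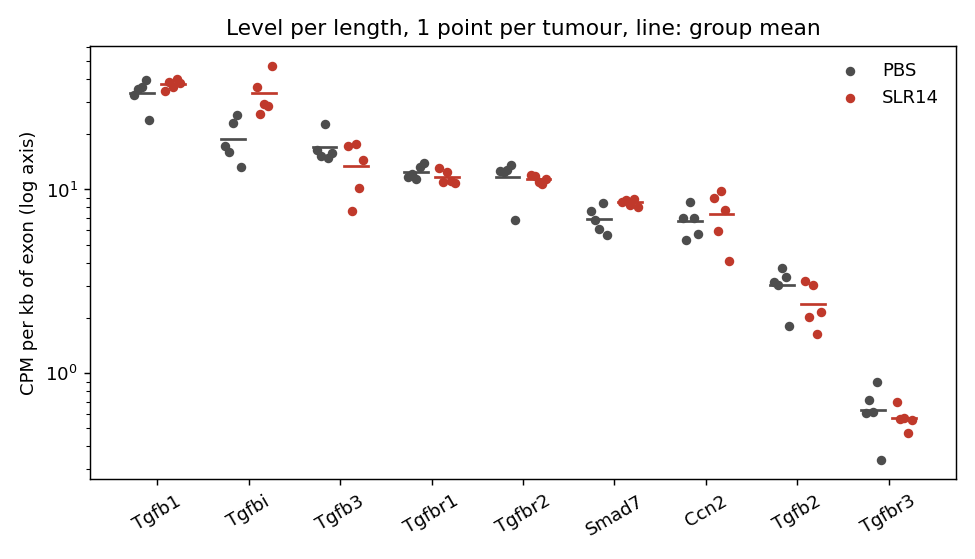
Level per kb of exon (log y axis) of the 9 genes, ordered by the PBS mean. Each point is 1 tumour, grey for PBS and red for SLR14, and lines are group means. Tgfb1 lies highest, at 33.4 CPM per kb in PBS tumours, Tgfbr3 lowest at 0.632, and the groups are wholly apart for Tgfbi alone.

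Levels of the 9 genes were compared pair by pair across the tumours. Of 36 pairs, 1 passed a Benjamini-Hochberg adjusted permutation p of 0.05, Tgfbr2 and Tgfbr3 (Pearson r = 0.88 over 10 tumours, permutation p = 0.000240, adjusted 0.00864; Spearman rho = 0.87, permutation p = 0.00203, adjusted 0.0688). Its r was 0.71 without PBS 4 and PBS 5, the tumours farthest from the median of Tgfbr2. It did not pass without PBS 5 (r = 0.83, adjusted permutation p = 0.110) or with group means subtracted (r = 0.90, adjusted permutation p = 0.152). Tgfb2 and Tgfb3 had an r of 0.70 (adjusted permutation p = 0.130; rho = 0.66, adjusted permutation p = 0.293) and 0.82 without PBS 5 and SLR14 4. For Tgfb1 and Tgfbr2 the r of 0.80 (adjusted permutation p = 0.294) stood beside a rho of 0.02. It was 0.03 without PBS 5 and SLR14 4 and -0.24 without PBS 5 alone, so the r of 0.80 rests on PBS 5. All values share library depth and the cell makeup of each tumour.

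**Figure D3:**
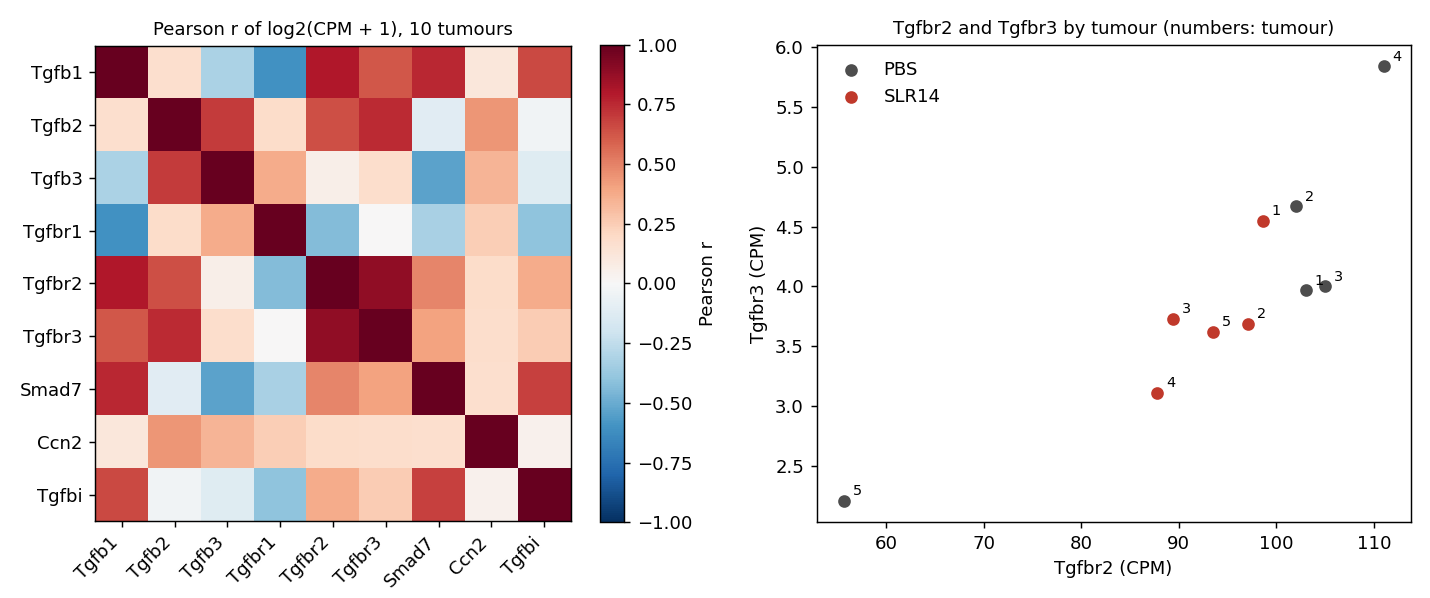
Left, Pearson r of log2(CPM + 1) over 10 tumours for each pair of the 9 genes, from blue (-1) to red (1). Right, Tgfbr2 against Tgfbr3 in CPM, 1 numbered point per tumour, where PBS 5 (55.6 and 2.21 CPM) lies apart at the lower left and PBS 4 (111 and 5.84 CPM) at the upper right.

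The genes whose pattern over the 10 tumours was most like each of the 9 were taken by the highest Pearson r among 13615 genes with a mean of at least 1 CPM, as a description. For Tgfb1 they were Ppp6r1 (r = 0.986), Git1 (r = 0.982) and Zfp598 (r = 0.980). For Tgfbr2 they were Ltbp3 (r = 0.984), P2rx7 (r = 0.963) and Thrap3 (r = 0.960). Ltbp3 is also on the list of latency genes, as a protein that binds latent TGF-beta in the matrix. For Ltbp3, as for Tgfbr2, PBS 5 was the lowest tumour, at 68.9 CPM against 114 to 151 CPM in the others. None of these nearest-gene r values was computed without PBS 5. Tgfbi was closest to Ly6e (r = 0.973), an interferon-inducible surface protein, to Nectin4 (r = 0.951) and to Qpctl (r = 0.935). The mean of Ly6e was 489 CPM for PBS and 698 CPM for SLR14 (log2 fold change 0.51, edgeR adjusted p = 0.0507). The r was taken over both groups together, so for Tgfbi it favours genes that also differ between the groups. For these nearest genes no r within the groups was computed. Smad7 was closest to Itprip (r = 0.981), Camk2n1 (r = 0.966) and Rsbn1l (r = 0.965). The genes nearest to Tgfb2 were Akap11 (r = 0.939), Zfp146 (r = 0.936) and Fam107b (r = 0.920), and those nearest to Tgfb3 were Atp1b1 (r = 0.942), Pus7l (r = 0.932) and Zfp157 (r = 0.929). Tgfbr1 went with Cmc1 (r = 0.953), Marchf1 (r = 0.942) and Dnajc19 (r = 0.931), and Tgfbr3 with Antxr1 (r = 0.956), Sox12 (r = 0.938) and Col5a3 (r = 0.938). For Ccn2 the likeness was lowest, with Ppp1r3d (r = 0.897), D630033A02Rik (r = 0.846) and Gm40787 (r = 0.832). For the other 8 genes the closest gene had an r of 0.939 or more, and all tumours share their depth and cell makeup between the genes compared.

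The rest of the pathway was read from 6 lists by role, 96 genes of which 89 were tested. In edgeR 1 rose (0.674% of all tested genes were called higher), 0 fell (0.29% were called lower) and 88 did not pass. At an unadjusted p under 0.05 there were 14 of 89, 7 higher and 7 lower, against 10.8% of all tested genes. DESeq2 called 2 of the listed genes, Smad6 and Cthrc1, and limma voom 1, Smad6. The median log2 fold change was 0.06, beside -0.01 over all tested genes, and 56 of 89 were positive. Groups did not overlap for 3 of the 89, Smad6, Acvr1 and Itga5, all higher in SLR14 tumours (1.92% of all tested genes), and 0 lay wholly below (1.32%).

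Smad6, the other inhibitory Smad, which acts mainly on bone morphogenetic protein receptors and is itself a target of that signal, was the call. It was at 18.5, 19.2, 19.5, 22.0 and 14.0 CPM in PBS tumours and at 27.5, 28.5, 27.5, 28.5 and 28.6 CPM in SLR14 tumours. Every SLR14 tumour lay above every PBS tumour, and the SLR14 values were nearly level. The means were 18.6 ± 2.92 and 28.1 ± 0.582 CPM (SD, n = 5), a log2 fold change of 0.59 with an SE of 0.11 (edgeR adjusted p = 0.0241). The call held without PBS 4 or PBS 5, but leaving out any 1 of the other 8 tumours ended it, with edgeR adjusted p between 0.0505 and 0.0718. Of the 15 inhibitors and feedback genes, which include Ski, Skil, Smurf1 and Smurf2, 14 did not pass, and the median log2 fold change of the 15 was 0.04. Dcn, or decorin, a proteoglycan that binds TGF-beta, chosen once its values were known, averaged 4.91 ± 3.07 CPM with PBS and 1.93 ± 1.21 CPM with SLR14 (log2 fold change -1.34, edgeR adjusted p = 0.325).

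Of 13 latency and activation genes tested 0 passed in edgeR, while 3 were under 0.05 before adjustment, as were 10.8% of all tested genes. The median log2 fold change of the 13 was 0.13. The smallest p was that of Fbn2, a fibrillin that anchors latent complexes, averaging 5.11 ± 3.52 CPM with PBS and 1.85 ± 1.33 CPM with SLR14 (SD, n = 5; edgeR adjusted p = 0.270). Furin and Thbs1 were chosen once their values were known. Furin, the protease that cuts the precursor, was at 218 ± 54.0 and 286 ± 9.97 CPM (log2 fold change 0.39, edgeR adjusted p = 0.388) and Thbs1, an activator of latent TGF-beta, at 247 ± 40.6 and 347 ± 121 CPM (0.49, edgeR adjusted p = 0.432). Both overlapped between the groups, and Furin was at 0.25 without PBS 5 (edgeR adjusted p = 0.154). Of 10 accessory and related receptors 0 passed in edgeR, while 1 was under 0.05 before adjustment, and the smallest p was that of Acvr1, a type I receptor of bone morphogenetic proteins, at 42.6 ± 5.34 and 52.4 ± 2.93 CPM (log2 fold change 0.30, edgeR adjusted p = 0.264). Of 11 Smad proteins and cofactors 0 were called by edgeR, by DESeq2 or by limma voom, and 0 were under 0.05 before adjustment, with the smallest p at Ep300, a coactivator (0.29, edgeR adjusted p = 0.584, and 0.13 without PBS 5). Smad2, Smad3 and Smad4, which carry the signal and were chosen once their values were known, had log2 fold changes of -0.03, 0.17 and 0.08. PBS 5 was the lowest of the 10 tumours for each of them, at 23.0 CPM for Smad3. Among 9 related ligands 0 passed in edgeR, while 1 was under 0.05 before adjustment, Bmp2, a bone morphogenetic protein, which had the smallest p (0.80, edgeR adjusted p = 0.452, at 0.388 ± 0.128 and 0.698 ± 0.302 CPM).

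**Figure D4:**
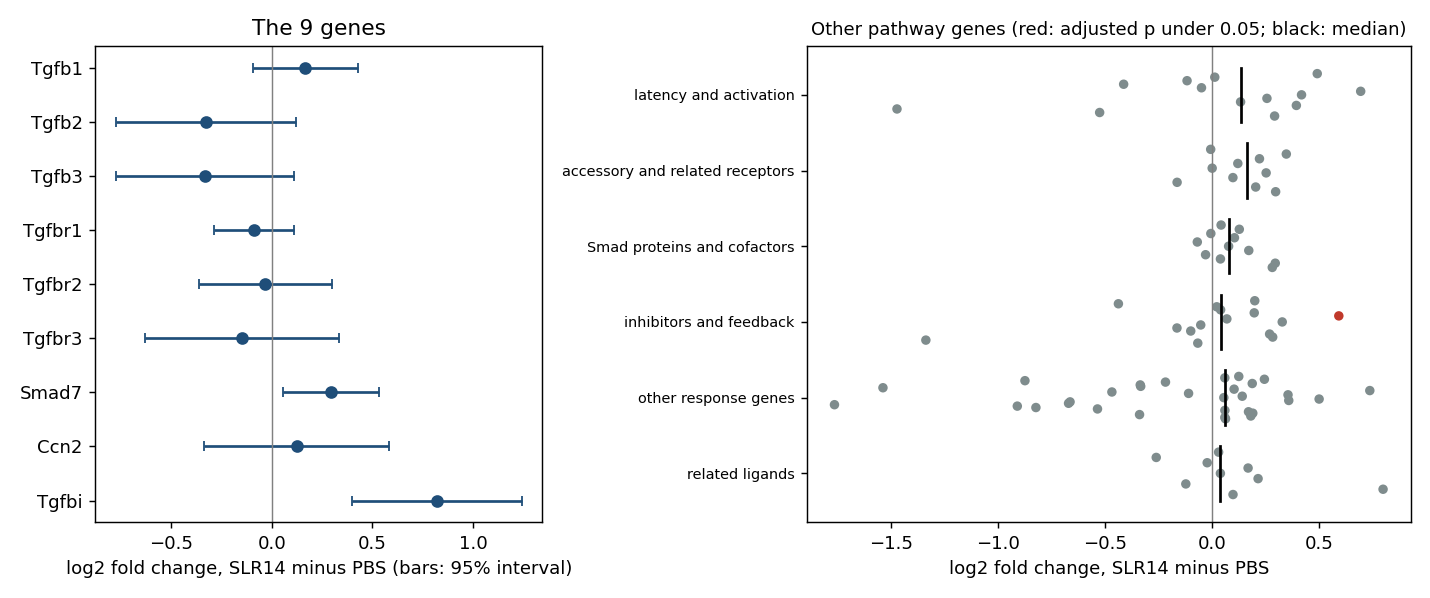
Left, log2 fold change of SLR14 against PBS for the 9 genes with its 95% interval, which lies above 0 for Tgfbi (0.40 to 1.24) and Smad7 (0.06 to 0.53). Right, the same value for the 89 other pathway genes, 1 point a gene, by list, with the list median as a black line and Smad6, the gene with an adjusted p under 0.05, in red at 0.59.

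Of 31 other response genes 0 passed in edgeR, and 7 were under 0.05 before adjustment, as were 10.8% of all tested genes. DESeq2 called 1, Cthrc1, where it called 2.19% of its tested genes. The median log2 fold change was 0.06, and the 7 genes, of which all but Cthrc1 were chosen once their values were known, went both ways. Itga5, the fibronectin receptor subunit, averaged 103 ± 18.6 CPM with PBS and 146 ± 20.2 CPM with SLR14, without overlap (log2 fold change 0.50, edgeR adjusted p = 0.154), and PBS 5 was its lowest tumour at 70.4 CPM. Lox, the collagen cross-linking enzyme, had a log2 fold change of 0.35 (edgeR adjusted p = 0.444). The rest of the 7 had negative values, while the whole list held 17 positive and 14 negative ones. Among its positive ones were Vim (0.24), Timp1 (0.19) and Acta2 (0.06), which are also matrix or mesenchymal genes. Col3a1, a fibrillar collagen, was at 408 ± 204 and 217 ± 89.8 CPM (log2 fold change -0.91, edgeR adjusted p = 0.383), and Fn1, fibronectin, at 299 ± 152 and 188 ± 49.3 CPM (-0.67, edgeR adjusted p = 0.438). For Fn1, PBS 1 was at 541 CPM and the other PBS tumours at 125 to 311 CPM. Leaving out 1 tumour gave log2 fold changes of -0.87 to -0.35 for Fn1. Cthrc1, a secreted protein of activated fibroblasts, was at 2.68 ± 1.55 and 0.791 ± 0.483 CPM (-1.76, edgeR adjusted p = 0.129, DESeq2 adjusted p = 0.00888). The transcription factors Snai2 and Twist1 were low, averaging 0.667 and 1.27 CPM with PBS and 0.214 and 0.692 CPM with SLR14.

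Markers of fibroblasts differed between the groups beside these genes. The 10 fibroblast markers, all in the table and none at 0 in every tumour, summed to 42.1, 42.9, 70.1, 71.4 and 47.6 CPM in PBS tumours and to 39.2, 24.9, 28.4, 34.6 and 41.3 CPM in SLR14 tumours. Every SLR14 tumour lay below every PBS tumour, but narrowly (41.3 against 42.1 CPM at the nearest). The largest parts of the sum were Thy1 (means 21.5 and 16.4 CPM) and Col14a1 (13.2 and 6.98 CPM), which did not pass. Of 9 tested markers 8 had negative fold changes and 1, Clec3b, a positive one. In edgeR 2 of the 9 fell, where 0.29% of all tested genes were called lower. They were Fap (log2 fold change -1.74, edgeR adjusted p = 0.0126) and Dpp4 (-2.32, edgeR adjusted p = 0.0235). Both were low, Fap at 2.30 to 4.07 CPM in PBS and 0.381 to 1.15 CPM in SLR14 tumours. Dpp4 was at 0.716 to 1.90 and 0.0761 to 0.400 CPM, so its fold change rests on few reads. Leaving out PBS 1, SLR14 1 or SLR14 3 ended the Dpp4 call, with edgeR adjusted p between 0.0589 and 0.0714. PBS 3 and PBS 4, the tumours with the most fibroblast marker RNA, were also those with the most Col3a1 (552 and 696 CPM, the other PBS ones holding 253 to 283 CPM). The pericyte and smooth muscle markers summed to 298 to 454 CPM with PBS and 259 to 325 CPM with SLR14, and 1 of 10 fell, Rgs5 (-0.96, edgeR adjusted p = 0.00315). Macrophage markers, of which 0 of 10 passed, summed to 1847 to 2363 and 1832 to 2291 CPM. Neutrophil markers, 8 of 10 in the table, summed to 14.3 to 22.8 and 25.8 to 58.9 CPM. In edgeR 3 of 6 tested rose, where 0.674% of all tested genes were called higher. Csf3r, with the highest mean of these markers in both groups (9.18 and 12.3 CPM), did not pass. Markers of platelets, whose granules carry TGF-beta 1, summed to 17.8 to 28 and 19.0 to 29.8 CPM, with 4 of 8 in the table. The part of these cell types in the values of the TGF-beta genes was not tested.

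**Figure D5:**
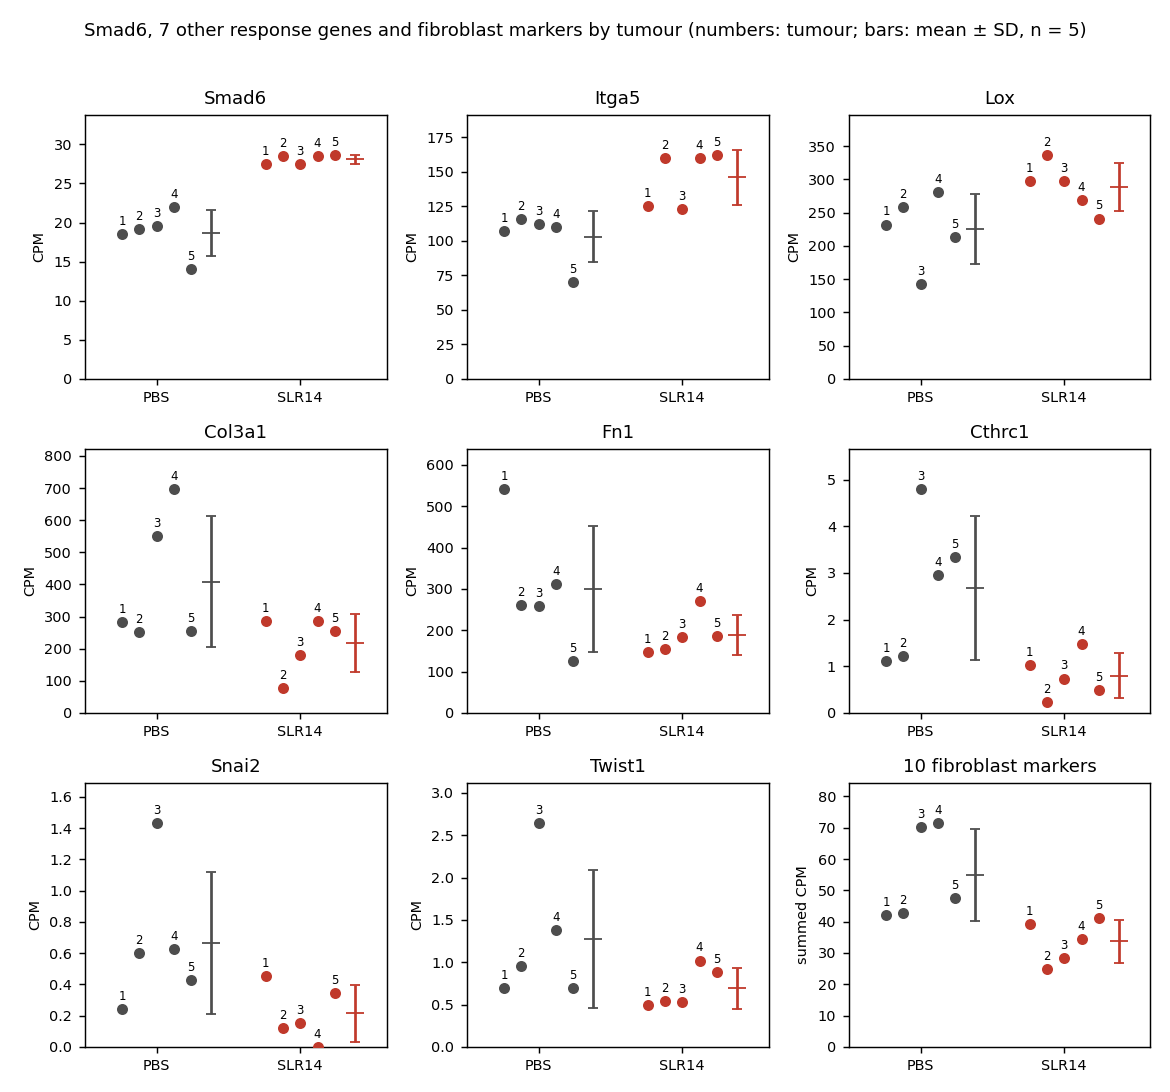
Smad6, 7 other response genes of TGF-beta and the summed level of 10 fibroblast markers in CPM (y axes, starting at 0) in the 5 PBS and 5 SLR14 tumours. Points are numbered tumours and bars the mean ± SD. Groups do not overlap for Smad6, Itga5 and the fibroblast sum (42.1 to 71.4 CPM with PBS, 24.9 to 41.3 CPM with SLR14), and they overlap for the other 6 genes.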

How the data were processed

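The authors deposited raw counts per gene and a normalized signal, the same counts divided by 1 factor per tumour, which the values show; their steps involved DESeq2 1.36.0, STAR, Trim Galore 0.6.7 and the mm39 build, per the submitters' processing notes. What program counted the reads, on which strand and with which annotation is not given in the sources used here. Reads of overlapping genes may therefore be mixed. Groups come from sample titles. The deposited counts were filtered with filterByExpr (minimum count 10), which kept 15883 of 18603 genes, scaled by TMM and tested with edgeR 4.0.16 (R 4.3.3, quasi-likelihood test, all 10 tumours, no covariate), with Benjamini-Hochberg adjustment over all tested genes. The SE of a log2 fold change is its size divided by the square root of F, and 95% intervals use the t distribution with the fit's degrees of freedom. The steps were tested on simulated data.

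Alternatives were other factors, other filters, DESeq2 1.42.0, limma 3.58.1 (voom, and log2 of the authors' normalized signal plus 1), the replicate number as a block and leaving out tumours. Pairs used 100000 permutations of log2(CPM + 1). Exon lengths come from GENCODE M21 (GRCm38), matched by identifier for all 9 genes. No 2 tumours of a group were alike within counting noise. Genes with no symbol, 74 of them with 0.0295% of counts, were kept.

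Members, lists and tests were chosen with earlier results of these data known. Named are the 9 genes, in each pathway list the called genes and that with the smallest p, and the 3 genes most like each of the 9. Dpp4, Fap, Rgs5, the renal markers and others said to be so were named after their values were seen.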

Additional observations from a re-analysis of the deposited data

Results flagged for a closer look

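In 6 of 74 groups of 5 tumours, the highest or lowest tumour lay apart from the rest, with a gap above 0.71 of the group's range, which chance gives in about 1 in 20 groups. All 6 were in PBS tumours. Tgfb3 was at 76.5 CPM in PBS 3, against 50.0 to 55.6 CPM in the other PBS tumours. The other 5 were low values of PBS 5. Tgfbr2 was at 55.6 CPM there, against 102 to 111 CPM, and Itga5 at 70.4 CPM, against 107 to 116 CPM. Ep300 was at 109 CPM, against 218 to 259 CPM. The log2 ratio of Tgfbr2 to Tgfbr1 per kb was -1.04, against 0.03 to 0.18. Tgfb2 made up 4.38% of the ligand level, against 5.66 to 6.03%.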

How the results depend on the processing

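Under 8 other settings and with tumours left out, the 9 genes kept the direction and the side of the threshold of their log2 fold change in 162 of 171 values. Tgfbi passed in 2, DESeq2 and without PBS 4, and 7 reversed. Tgfbr2 turned positive with limma on the authors' normalized values (0.017), limma voom (0.011), and without PBS 3 (0.0072) or PBS 4 (0.031). Leaving out 1 tumour gave -0.18 to 0.031 for Tgfbr2, -0.31 to 0.011 for Tgfbr3 (positive without PBS 4) and -0.011 to 0.28 for Ccn2 (negative without SLR14 3). Of 338 values of 18 other named genes, 323 kept both, 14 lost the call and 1 gained it. Over all genes 153 were called, 107 higher and 46 lower. DESeq2 called 407, 251 higher and 156 lower, among them 1 of the 9 genes and 2 other pathway genes. Leaving out 1 tumour gave 69 to 194 calls, 44 to 123 higher and 25 to 71 lower, with 0 to 1 of the 9 genes and 0 to 1 other pathway genes. Calls fell most without PBS 1 (69) and also without PBS 3 (78), SLR14 1 (77), SLR14 3 (75) or SLR14 4 (89). Without PBS 5 and SLR14 2, a setting chosen after seeing the data, 74 genes were lower.

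The replicate numbers are shared by the groups but did not pair the tumours: deviations of same-numbered tumours correlated at -0.25 to 0.138, and in 1 case a tumour correlated best with its own number. With the replicate block 78 genes were called, 51 higher and 27 lower, with 0 other pathway genes, and Tgfbr2 was at 0.0056. Among the named genes followed over the settings, 2 calls ended, Smad6 (edgeR adjusted p = 0.083) and the fibroblast marker Fap (-1.78, edgeR adjusted p = 0.0742). The call of Epcam was not followed over the settings.

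With the longest transcript as length, PBS means were 65.4 CPM per kb for Tgfb1 and 14.2 for Tgfbr1, and log2 ratios were -4.28 for Tgfb2 to Tgfb1 and -1.95 for Tgfb3 to Tgfb1. Of the pairs, 0 passed with group means subtracted and 0 without PBS 5. The cause of these changes was not tested. Tgfbr3 had the fewest reads of the 9 genes, 57 to 195 per tumour.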
